A study of Mus musculus with 10 samples.

Results

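The heat shock proteins and their J-domain partners form the core of the folding machinery of the cell, and 73 of the 38962 genes in the count table belong to them. They were chosen by name: the protein-coding genes of the Hspa, Hspb, Hspd, Hspe, Hsph, Hsp90a, Dnaja, Dnajb and Dnajc series, without Hspa5, together with the heat shock factors Hsf1 and Hsf2. The rule uses names alone, although it was set with earlier results of these data known. Matching by name also brought in Hspbp1 and Hspbap1, which bind heat shock proteins but are not chaperones of these families. The 73 genes divide into 9 HSP70 genes, 3 HSP110 genes, Hspa14, 2 HSP90 genes, 2 chaperonin genes, 8 small heat shock proteins, 2 HSP-binding proteins, 44 J-domain genes and 2 heat shock factors. Of these, 70 passed the filter on low counts and were tested.

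Bone RNA was compared between 5 young (2 months) and 5 aged (22 months) male C57BL/6J mice, for which the labels name no transgene or treatment, with 1 library per mouse. The femurs were flushed of marrow, frozen and pulverized, so each library mixes the RNA of every cell left in the bone. The Jackson Laboratory supplied the young mice, whereas the aged ones were from the National Institute on Aging colony and were kept further in house, so supplier and age cannot be told apart. Levels are CPM, counts divided by library sizes that were scaled by the trimmed mean of M values (TMM). Aged was compared with young bone with the quasi-likelihood test of edgeR, p-values were adjusted over 22088 tested genes (Benjamini-Hochberg), and a gene was called where the adjusted p did not exceed 0.05.

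The libraries held 33447009 to 40395050 counts in young and 31788232 to 45075335 counts in aged mice, of which the 73 genes took 0.258% to 0.325% and 0.237% to 0.354%. Osteoblast markers summed to 43317 to 92197 CPM in young and 18612 to 46207 CPM in aged bone, and 5 of 12 were lower, while none was at 0. Skeletal muscle markers were present in every library, at 23846 to 70671 CPM in young and 40238 to 110636 CPM in aged bone, and none of the 30 was at 0 in every library. Of the 29 muscle markers tested 0 were called, with 12 higher and 0 lower at an unadjusted p under 0.05 and a median log2 fold change of 0.58. Young mouse 4 had the lowest mean log2 CPM of these markers among the young (7.31, against up to 8.86 in young mouse 3) and aged mouse 4 among the aged (7.81, against up to 9.67 in aged mouse 1).

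HSP70 proteins bind exposed hydrophobic stretches of unfolded proteins and release them in a cycle of ATP hydrolysis, which J-domain proteins start and nucleotide exchange factors such as the HSP110 proteins complete. HSP90 acts later, on nearly folded clients such as kinases and steroid receptors, the chaperonins Hspd1 and Hspe1 fold proteins inside mitochondria, and the small heat shock proteins hold unfolding proteins without using ATP. Under stress the transcription factor Hsf1 forms trimers that bind inverted repeats of GAA in promoters and raise the inducible members. Several small heat shock proteins are made mostly in skeletal and heart muscle, where they protect the contractile filaments. In bone the cytosolic and mitochondrial chaperones work in every cell type, so their levels read the mixture as a whole.

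The promoters of 4 members are printed here, the inducible HSP70 pair and those with the longest runs of the GAA repeat, because their levels are set beside that of Hsf1 later. The sequences are from RefSeq (GRCm38.p6) and cover the 250 bases before the transcription start, with the matched repeat in capitals. Hspa1a (chr17:34972157-34972406, minus strand) and Hspa1b (chr17:34959239-34959488, minus strand) carry the pair GAANNTTC, and Dnajb6 (chr5:29735648-29735897, plus strand) and Hspe1 (chr1:55087898-55088147, plus strand) carry at least 3 units in a row.
Hspa1a: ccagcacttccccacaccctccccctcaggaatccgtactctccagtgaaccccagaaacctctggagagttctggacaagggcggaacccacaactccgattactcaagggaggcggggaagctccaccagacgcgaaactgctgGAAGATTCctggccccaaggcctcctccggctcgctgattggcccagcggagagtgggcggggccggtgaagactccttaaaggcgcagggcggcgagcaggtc
Hspa1b: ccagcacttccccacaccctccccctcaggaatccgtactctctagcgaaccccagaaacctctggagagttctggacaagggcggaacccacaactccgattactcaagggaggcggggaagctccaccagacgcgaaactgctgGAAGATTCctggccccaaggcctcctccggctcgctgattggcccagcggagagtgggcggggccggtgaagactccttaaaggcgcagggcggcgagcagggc
Dnajb6: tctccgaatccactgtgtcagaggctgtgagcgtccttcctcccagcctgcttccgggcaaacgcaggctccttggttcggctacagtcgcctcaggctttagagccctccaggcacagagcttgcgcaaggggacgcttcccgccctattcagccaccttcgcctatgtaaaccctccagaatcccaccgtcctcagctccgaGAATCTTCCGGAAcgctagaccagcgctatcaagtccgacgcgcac
Hspe1: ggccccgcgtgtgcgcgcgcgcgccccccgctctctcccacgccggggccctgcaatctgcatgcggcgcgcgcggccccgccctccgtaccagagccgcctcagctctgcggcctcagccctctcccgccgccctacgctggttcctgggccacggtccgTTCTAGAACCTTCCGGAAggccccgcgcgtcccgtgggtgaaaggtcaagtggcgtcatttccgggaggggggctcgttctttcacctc

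Hspa1a and Hspa1b, the inducible HSP70 genes, differ at only 3 of the 250 promoter bases (98.8% identical). Hspd1 and Hspe1 lie head to head, and the stretch in capitals of Hspe1 is that of Hspd1 read on the other strand, so they are 1 match, which holds a 4th unit. Of the 73 genes, 58 had a promoter entry and 15 had none. The pair GAANNTTC stood in the window of 11 of the 58 (19%), against 7.73% of all 27025 genes with an entry and 6.69% of the 32851 promoters. The pair TTCNNGAA stood in 6 of the 58 (10.3%), against 8.11% of genes and 7.17% of promoters. A run of 3 units, GAANNTTC followed by NNGAA or TTCNNGAA followed by NNTTC, stood in Dnajb6, Hspd1 and Hspe1 (5.17%), against 0.514% of genes and 0.466% of promoters. All of these motifs read the same on both strands apart from the 3-unit stretches, which are each other's reverse complement, and every 3-unit match contains both pairs. A match is a description of the letters and does not show binding.

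Few of the chaperone genes were called different between young and aged bone. Of the 70 tested genes, 0 were called higher, where 3.68% of all tested genes were, and 1 was called lower, where 3.61% were. With a change of at least 1.5-fold in addition the counts were again 0 and 1, against 2.64% and 2.72% of all tested genes. At an unadjusted p under 0.05, 6 were higher and 6 lower, against 13.3% and 12.4% of all tested genes, and each count is 8.57% of the 70. DESeq2 called 2 of the 70 higher and 1 lower, where it called 6.10% and 4.93% of all genes it tested, and limma-voom 0 and 1, against 3.26% and 3.63%. In 43 of the 70 (61.4%) the 95% interval of the fold change lay within 1.5-fold in both directions, against 43.2% of all tested genes. A gene that was not called may still differ: the other 27 intervals, that of the called gene among them, reach beyond 1.5-fold in at least one direction. The median log2 fold change of the 70 was 0.04, against 0.01 for all tested genes, and the plot of fold changes shows the spread by family.

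**Figure D1:**
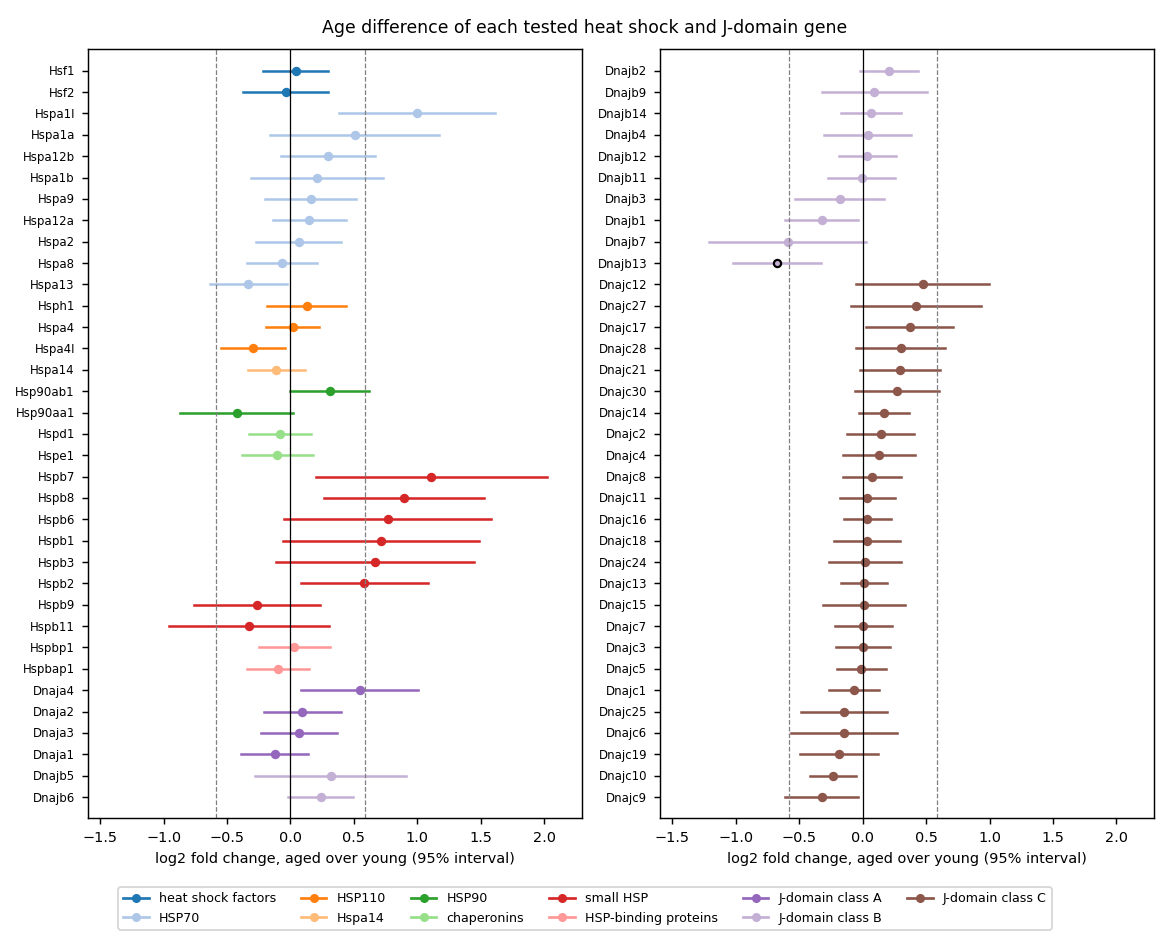
Log2 fold change of aged over young bone for the 70 tested genes, coloured by family, with lines for the 95% interval, dashed lines at 1.5-fold and a black ring on a called gene. Most points sit near 0, Dnajb13 is the only ringed gene at -0.68, and 6 of the 8 small heat shock proteins lie between 0.58 and 1.11 with wide intervals.

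The gene called lower was Dnajb13 (chr7:100501716-100514960, minus strand), a class B J-domain gene known for its part in sperm tails and motile cilia. It measured 22.3, 25.4, 15.6, 28.1 and 30.2 CPM in young mice 1 to 5 and 14.6, 19.2, 14.5, 14.3 and 13.6 CPM in aged mice 1 to 5. Young mouse 3 lay inside the range of the aged mice, below aged mouse 2, and the other 4 young mice lay above all the aged. The mean level was 24.3 ± 5.69 CPM in young and 15.2 ± 2.26 CPM in aged bone (SD, n = 5 per group), which is 1.6-fold lower (log2 fold change -0.68 ± 0.16 SE, adjusted p = 0.0242 by edgeR). In bulk bone, fewer cells of a type and less RNA per cell cannot be told apart. The call was lost with the muscle markers as a covariate (-0.58, edgeR adjusted p = 0.0864), with the immediate-early genes as a covariate (-0.66, edgeR adjusted p = 0.107), and without young mouse 2, young mouse 4, aged mouse 3 or aged mouse 5 (edgeR adjusted p of 0.0661, 0.0724, 0.0552 and 0.0526). The share of all tested genes called lower in those 6 fits was 3.11%, 1.22%, 1.73%, 2.01%, 2.13% and 3.08%, against 3.61% with all libraries and no covariate.

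Dnajb13 overlaps Ucp2, a mitochondrial carrier gene that is abundant in blood cells, on the opposite strand. Their exons share 305 bases, which is 11.2% of the exon bases of Dnajb13, and the sources used here do not say whether counting was by strand, so reads in the shared stretch cannot be assigned with certainty. Ucp2 was at 434 ± 62.5 CPM in young and 339 ± 82.6 CPM in aged bone (SD, n = 5 per group; log2 difference -0.36, adjusted p = 0.177 by edgeR). Counts of Dnajb13 were 5.58% ± 0.988 of those of Ucp2 in young and 4.59% ± 0.590 in aged mice (SD, n = 5), with ranges of 4.41% to 6.91% and 4.03% to 5.25% that overlap. Markers of ciliated and testis cells were low in these libraries: Foxj1 was at 0.226 ± 0.129 CPM in young and 0.222 ± 0.101 CPM in aged bone and was not tested, and of 11 markers 5 passed the filter and 0 were called, with 1 higher and 1 lower at an unadjusted p under 0.05. Their summed level was 87.1 to 103 CPM in young and 90.1 to 107 CPM in aged bone, most of it Odf2, and the part of Ucp2 or of ciliated cells in the fall of Dnajb13 was not tested.

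**Figure D2:**
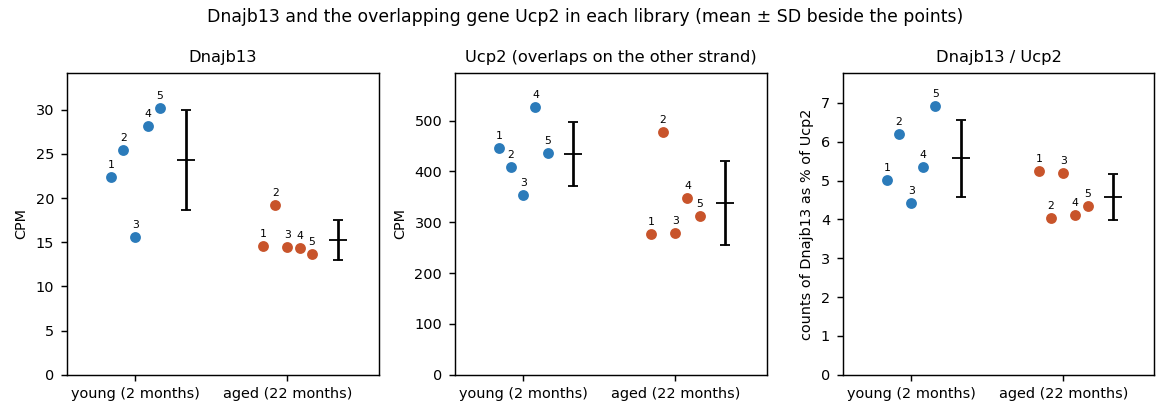
CPM of Dnajb13 and of Ucp2, and counts of Dnajb13 as a percentage of those of Ucp2, in each numbered mouse, with the mean ± SD beside the points. Dnajb13 is lower in aged bone except for an overlap of young mouse 3 (15.6 CPM) with aged mouse 2 (19.2 CPM), while Ucp2 and the percentage overlap between the groups.

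The ratio between the cytosolic HSP90 genes differed between young and aged bone. Hsp90aa1 is the stress-inducible and Hsp90ab1 the constitutive form of the same chaperone. Hsp90aa1 (chr12:110690605-110702728, minus strand) measured 80.3, 104, 77.1, 95.6 and 48.2 CPM in young mice 1 to 5 and 75.1, 71.9, 40.6, 53.6 and 61.1 CPM in aged mice 1 to 5. Hsp90ab1 (chr17:45567775-45573271, minus strand) measured 385, 340.3, 426, 336 and 293 CPM in young mice 1 to 5 and 523, 508, 379.5, 341 and 455 CPM in aged mice 1 to 5. For both genes the groups overlap, and neither was called: the log2 fold change of Hsp90aa1 was -0.42 (adjusted p = 0.218 by edgeR) and that of Hsp90ab1 was 0.31 (adjusted p = 0.195 by edgeR).

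Within each library, counts of Hsp90aa1 were 20.9%, 30.6%, 18.1%, 28.4% and 16.5% of those of Hsp90ab1 in young mice 1 to 5 and 14.4%, 14.2%, 10.7%, 15.7% and 13.4% in aged mice 1 to 5. Every aged mouse lay below every young mouse. The mean was 22.9% ± 6.29 in young mice and 13.7% ± 1.86 in aged mice (SD, n = 5 per group), a difference of -0.71 on the log2 scale (two-sided exact permutation test, p = 0.00794, the smallest this design allows, and 0.0159 adjusted over the 2 ratios compared). Leaving out each mouse in turn gave differences of -0.82 to -0.60. Fitted together with the muscle marker level, the difference was -0.48, and with the marrow marker level, which joins red cell precursor, neutrophil and B lineage genes, it was -0.61.

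The mean log2 CPM of the marrow markers was 6.67, 6.87, 6.40, 6.95 and 6.45 in young mice 1 to 5 and 6.42, 7.16, 6.07, 6.43 and 6.47 in aged mice 1 to 5. The groups overlap. Young mice 2 and 4 had both the highest marrow marker levels and the highest HSP90 ratios of the young, whereas young mice 3 and 5 had the lowest of both. Young mice 3 and 5 also had the highest muscle marker levels of the young, at 8.86 and 8.65. Among the aged, mouse 3 was lowest in both marrow markers and ratio. Aged mouse 2 had the highest marrow marker level but a ratio of 14.2%, and aged mouse 4 had the highest ratio, 15.7%, at a marrow marker level of 6.43. Of 10 red cell precursor markers 1 was called lower by edgeR, with 4 lower at an unadjusted p under 0.05, and of 10 B lineage and plasma cell markers 4 were called lower and 1 higher, with 7 lower and 1 higher at that p. Of 10 neutrophil markers 0 were called, with 1 higher at an unadjusted p under 0.05. The separate part of each of these cell types in the ratio was not tested. Of the 150-base windows of Hsp90aa1 transcripts, 28.5% also occur in other genes, mostly in Gm12346, and none of those of Hsp90ab1 do.

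**Figure D3:**
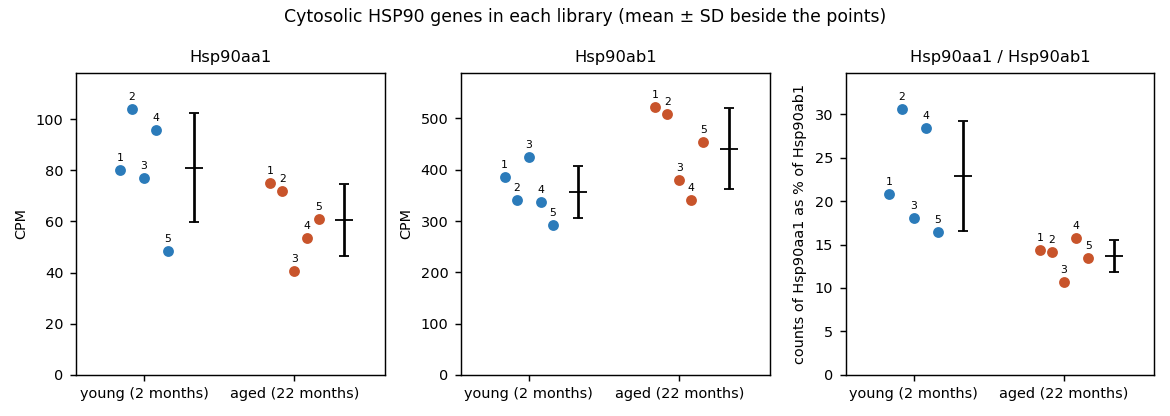
CPM of Hsp90aa1 and Hsp90ab1 and counts of Hsp90aa1 as a percentage of Hsp90ab1, in each numbered mouse, with the mean ± SD beside the points. Each gene alone overlaps between the groups, while the percentage runs from 16.5% to 30.6% in young and from 10.7% to 15.7% in aged mice without overlap.

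Of the 9 HSP70 genes, 0 were called by edgeR, with 1 higher and 1 lower at an unadjusted p under 0.05. Hspa8, the constitutive cytosolic HSP70 that most J-domain proteins serve, was the most abundant of them. It measured 269, 312, 322, 315 and 309.6 CPM in young mice 1 to 5 and 351, 337, 239, 239.7 and 290.5 CPM in aged mice 1 to 5. Aged mice 3 and 4 were lowest and aged mouse 1 highest, and the young mice lay between them (log2 fold change -0.07 ± 0.13 SE, adjusted p = 0.773 by edgeR). Of the 150-base windows of Hspa8, 22.8% also occur in other genes, mostly in Gm15459. Hspa9, the mitochondrial HSP70, had a log2 fold change of 0.16 (adjusted p = 0.576 by edgeR).

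The inducible genes Hspa1a and Hspa1b, which rise sharply in heated cells, were low in every mouse. Hspa1a measured 2.77, 1.56, 0.867, 1.67 and 2.005 CPM in young mice 1 to 5 and 4.25, 1.99, 2.24, 1.48 and 2.78 CPM in aged mice 1 to 5. Hspa1b measured 3.75, 2.997, 1.802, 2.296 and 2.5 CPM in young mice 1 to 5 and 4.19, 2.96, 3.53, 1.69 and 3.14 CPM in aged mice 1 to 5. Both overlap between the groups, with log2 fold changes of 0.51 (adjusted p = 0.321 by edgeR) and 0.21 (adjusted p = 0.6203 by edgeR). Counts of the pair were 2.42%, 1.46%, 0.828%, 1.26% and 1.46% of those of Hspa8 in young mice 1 to 5 and 2.40%, 1.47%, 2.41%, 1.32% and 2.04% in aged mice 1 to 5. The log2 difference of this ratio was 0.42 (two-sided exact permutation test, p = 0.230, also 0.230 adjusted over the 2 ratios). It was 0.23 without young mouse 3, where the ratio is lowest, and 0.62 without young mouse 1. The transcripts share 39.7% and 40.5% of their 150-base windows, almost all with each other, so their split is uncertain. The sources used here do not say whether reads that fit both genes were counted, so their sum is uncertain as well.

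Hspa1l (chr17:34972703-34979285, plus strand), a testis-enriched HSP70 gene beside Hspa1a, came closest to a call among genes that were higher. It measured 1.13, 1.18, 1.698, 0.7098 and 1.37 CPM in young mice 1 to 5 and 3.41, 2.55, 1.94, 1.195 and 2.96 CPM in aged mice 1 to 5. Aged mouse 4 was the lowest of the aged and lay within the young range, and the other 4 aged mice lay above all the young. The log2 difference was 0.998 ± 0.29 SE (adjusted p = 0.0501 by edgeR), just outside the threshold. It passed with DESeq2's size factors in edgeR (edgeR adjusted p = 0.0476), without a filter on low counts (0.0256), with DESeq2 (0.0122), without young mouse 3 (0.0445) and without aged mouse 4 (0.0119), and its difference was 0.44 with the muscle markers as a covariate (edgeR adjusted p = 0.276). Of its exon bases 71.9% lie under the antisense gene Gm10501, which was at 0.355 ± 0.150 CPM in young and 0.394 ± 0.143 CPM in aged bone, so the share of each is uncertain without strand. Hspa13, an HSP70-like protein of the endoplasmic reticulum, had a log2 fold change of -0.33 (adjusted p = 0.159 by edgeR).

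The nucleotide exchange factors of the HSP110 family were not called. Hspa4 had a log2 fold change of 0.02 (adjusted p = 0.929 by edgeR), Hsph1 of 0.13 (adjusted p = 0.609 by edgeR) and Hspa4l of -0.30 (adjusted p = 0.131 by edgeR). Hspa4l measured 38.1, 44.4, 36.6, 44.99 and 31.96 CPM in young mice 1 to 5 and 37.1, 33.5, 27.4, 30.9 and 30.8 CPM in aged mice 1 to 5. Young mice 3 and 5 lay below aged mouse 1, so the groups overlap. The mitochondrial chaperonins Hspd1 and Hspe1, which assemble into 1 folding chamber, were at close to the same level in both groups. Hspd1 was at 68.5 ± 10.1 CPM in young and 64.7 ± 5.34 CPM in aged bone and Hspe1 at 12.97 ± 2.03 CPM in young and 12.1 ± 1.54 CPM in aged bone (SD, n = 5 per group), with log2 fold changes of -0.08 (adjusted p = 0.687 by edgeR) and -0.10 (adjusted p = 0.6497 by edgeR), and both 95% intervals lay within 1.5-fold. Their exons overlap by 112 bases on opposite strands.

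The small heat shock proteins were the family with the highest median, at a log2 fold change of 0.69 over 8 tested genes against 0.01 for all tested genes, and with the widest spread between mice. None was called, and 3 were higher and 0 lower at an unadjusted p under 0.05. The median coefficient of variation of the 8 was 34.7% in young and 36.5% in aged mice, against 17.2% and 19.95% for all tested genes. Their summed level ran from 110 to 314 CPM in young and from 170 to 736 CPM in aged mice. DESeq2 called Hspb8 (adjusted p = 0.0149) and limma-voom called none of them.

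Hspb6 (chr7:30552178-30555443, plus strand), which binds contractile proteins in muscle, measured 81.6, 110.1, 139, 41.5 and 115 CPM in young mice 1 to 5 and 279, 124, 210.5, 69.7 and 144 CPM in aged mice 1 to 5. Hspb7 (chr4:141420779-141425311, plus strand), a heart and skeletal muscle protein that binds filamin, measured 74.6, 81.5, 97.9, 35.8 and 104 CPM in young mice 1 to 5 and 334, 165, 169.6, 51.5 and 131 CPM in aged mice 1 to 5. Hspb8 (chr5:116408491-116422864, minus strand), which with Bag3 marks damaged filaments for autophagy, measured 29.8, 39.4, 52.6, 19.8 and 48.7 CPM in young mice 1 to 5 and 81.1, 63.5, 94.7, 36.7 and 77.9 CPM in aged mice 1 to 5. In all 3 genes young mouse 4 was the lowest of the young and aged mouse 4 the lowest of the aged, the same mice that had the least muscle marker RNA, and the groups overlap. The differences were log2 fold change 0.77 ± 0.37 SE, adjusted p = 0.222 by edgeR for Hspb6, log2 fold change 1.11 ± 0.42 SE, adjusted p = 0.126 by edgeR for Hspb7 and log2 fold change 0.90 ± 0.29 SE, adjusted p = 0.0818 by edgeR for Hspb8.

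At equal age these genes followed the muscle markers. Across all tested genes, 3.77% rose and 0.444% fell with the mean log2 CPM of the muscle markers at an edgeR adjusted p of at most 0.05 in a fit with age, a test added after the data were seen. Of the 70 chaperone genes, 9 rose and 0 fell: Hspb2, Hspb3, Hspb6, Hspb7, Hspb8, Hspa1l, Hspa9, Dnajb5 and Dnajc27, of which Hspb3, Dnajb5 and Dnajc27 are named after their values were seen. The slope of Hspb7 was 1.18 per log2 unit of the markers (standard error 0.14), that of Hspb6 was 1.06 (standard error 0.10) and that of Hspb8 was 0.81 (standard error 0.09). In that fit the age difference was -0.09 for Hspb6, 0.08 for Hspb7 and 0.30 for Hspb8 (edgeR adjusted p = 0.730, 0.850 and 0.164), against 0.77, 1.11 and 0.90 without the markers, and the median of the 8 small heat shock proteins was -0.05.

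**Figure D4:**
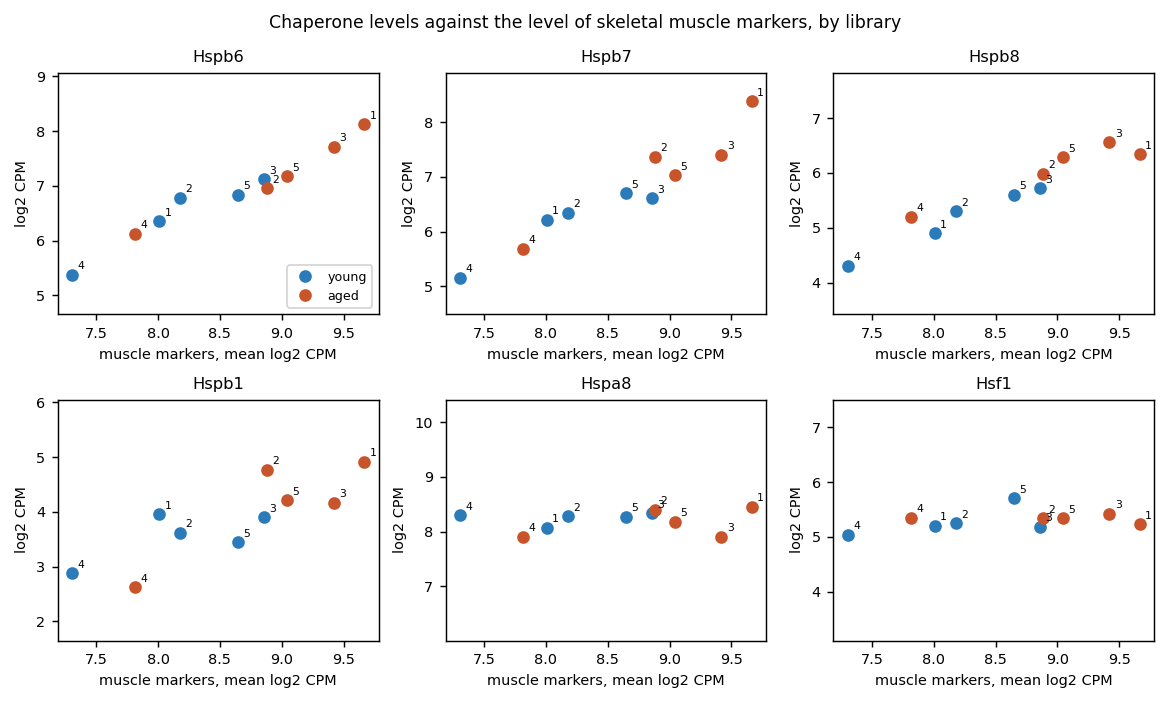
Log2 CPM of Hspb6, Hspb7, Hspb8, Hspb1, Hspa8 and Hsf1 against the mean log2 CPM of skeletal muscle markers, 1 point per numbered mouse, with the same span on every vertical axis. The Hspb6, Hspb7 and Hspb8 points rise with the markers in both groups and mice 4 of both groups sit at the lower left, while Hspa8 and Hsf1 are nearly flat.

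The other small heat shock proteins split in direction. Hspb1, the widely made and stress-inducible member, measured 15.5, 12.3, 15.01, 7.39 and 10.9 CPM in young mice 1 to 5 and 30.2, 27.3, 17.99, 6.16 and 18.5 CPM in aged mice 1 to 5. Aged mouse 4 was the lowest of all 10 and aged mice 1, 2, 3 and 5 lay above all the young (log2 fold change 0.72 ± 0.35 SE, adjusted p = 0.227 by edgeR). Without aged mouse 4 the difference of Hspb1 was 0.95 (edgeR adjusted p = 0.0286), and with the muscle markers it was -0.01 (edgeR adjusted p = 0.992). Of its 150-base windows 39.1% are shared with the pseudogene Hsp25-ps1. Hspb2 was at 3.47 ± 0.832 CPM in young and 5.18 ± 1.55 CPM in aged bone (SD, n = 5 per group; log2 fold change 0.58 ± 0.23 SE, adjusted p = 0.136 by edgeR), and 30.2% of its exon bases lie under Cryab on the opposite strand. Cryab, a lens and muscle small heat shock protein outside the name rule, was at 58.4 ± 15.2 CPM in young and 124 ± 60.4 CPM in aged bone (log2 difference 1.08, adjusted p = 0.0804 by edgeR). Hspb9, a testis-enriched member, had a log2 fold change of -0.26 (adjusted p = 0.503 by edgeR), and Hspb11, a part of the ciliary transport machinery named after its values were seen, of -0.33 (adjusted p = 0.511 by edgeR).

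Leaving out aged mouse 4, the aged library with the least muscle marker RNA, raised the count of chaperone genes called higher from 0 to 5: Hspa1l, Hspb1, Hspb2, Hspb8 and Dnaja4 (edgeR adjusted p of 0.0119, 0.0286, 0.0257, 0.0384 and 0.00580). The 5 are 7.14% of the 70, where 3.65% of all genes tested without that mouse were called higher. In the fit to all libraries, adding the muscle-marker level moved the 5 differences closer to 0, to between -0.01 and 0.44. That fit still held aged mouse 4, unlike the fit that gave the 5 calls. The 5 genes were picked by leaving out a mouse low in these markers, so the shift is no separate evidence. The part of muscle RNA in these calls was not tested. Leaving out any other library gave 0 or 1 genes called higher, against 1.34% to 3.82% of all genes tested.

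**Figure D5:**
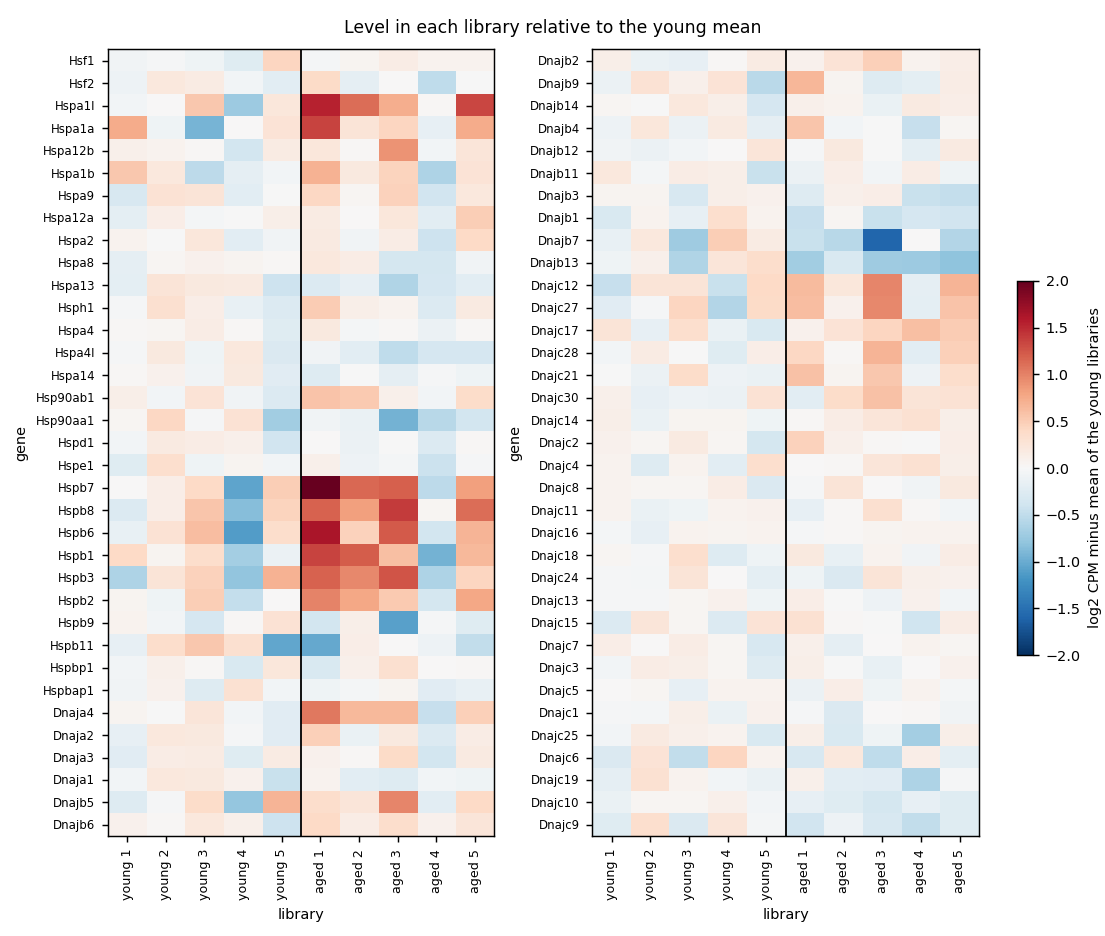
Log2 CPM of the 70 tested genes in each library, minus the mean of the young libraries, with red above and blue below that mean and rows ordered by family and fold change. Hspa1l and the small heat shock proteins, Hspb9 and Hspb11 excepted, are red in aged mice 1, 2, 3 and 5 and pale or blue in young mouse 4 and aged mouse 4, and most J-domain rows are pale throughout.

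The heat shock factors, which control the inducible members, were not called. Hsf1 measured 36.9, 37.98, 36.5, 32.8 and 52.3 CPM in young mice 1 to 5 and 37.6, 40.5, 42.8, 40.8 and 40.6 CPM in aged mice 1 to 5. Young mouse 5 stood above the other 9 mice, which lay between 32.8 and 42.8 CPM (log2 fold change 0.04 ± 0.12 SE, adjusted p = 0.857 by edgeR, 95% interval -0.21 to 0.29), and with scaling by total counts the difference was -0.13. Hsf2, a second factor of the family, had a log2 fold change of -0.04 (adjusted p = 0.8995 by edgeR). The 11 textbook members of the stress response, grouped after their values were seen, take in the constitutive Hspa8, whose log2 fold change of -0.07 is their median. These 11 had 0 calls, with values from -0.42 (Hsp90aa1) to 0.72 (Hspb1). Among them Dnajb1, the J-domain partner of HSP70 that Hsf1 induces, measured 22.7, 29.2, 24.8, 35.3 and 29.3 CPM in young mice 1 to 5 and 20.4, 28.6, 20.5, 22.1 and 21.3 CPM in aged mice 1 to 5. Aged mouse 2 stood apart at 28.6 CPM from the other aged mice, which lay below every young mouse (log2 fold change -0.32 ± 0.13 SE, adjusted p = 0.149 by edgeR). Hspd1, Hspe1 and Dnajb6, whose promoters hold 3 or more units of the repeat, had log2 fold changes of -0.08, -0.10 and 0.24.

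The J-domain proteins each recruit HSP70 to a place or a client, and of 44 genes 41 were tested, with 0 called higher and 1 lower, a median log2 fold change of 0.04 and 29 whose 95% interval lay within 1.5-fold. Their summed level ran from 1201 to 1298 CPM in young and from 1199 to 1347 CPM in aged mice. Classes A and B share the layout of the bacterial DnaJ protein in full or in part, and class C shares the J-domain alone. Class A gave 0 calls in 4 genes, class B 1 in 12 and class C 0 in 25. The untested members were Dnajb8, Dnajc5b and Dnajc22, which stayed below 0.23 CPM in every mouse, and Dnajc5b was counted in young mouse 4 alone.

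In class A, Dnaja1 and Dnaja2, general cytosolic partners of HSP70, had log2 fold changes of -0.12 (adjusted p = 0.557 by edgeR) and 0.09 (adjusted p = 0.719 by edgeR). Dnaja4 measured 18.7, 18.03, 21.5, 17.3 and 15.4 CPM in young mice 1 to 5 and 37.5, 28.5, 28.5, 13.1 and 25.1 CPM in aged mice 1 to 5. Aged mouse 4 was the lowest of all 10 mice and the other 4 aged mice lay above every young mouse (log2 fold change 0.54 ± 0.21 SE, adjusted p = 0.133 by edgeR), and with the muscle markers the difference was 0.13. Of its exon bases 44.1% lie under Wdr61 on the opposite strand. In class B, Dnajb6, which keeps aggregating proteins soluble, had a log2 fold change of 0.24 (adjusted p = 0.222 by edgeR) and Dnajb7 one of -0.59 (adjusted p = 0.215 by edgeR) at levels of 0.304 to 1.27 CPM.

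Class C holds many of the organelle members, and the organelle groups below also take genes of classes A and B. Dnajc10, a disulfide reductase of the endoplasmic reticulum that helps to unfold proteins for disposal, was the 1 gene of the 70 in which every aged mouse lay below every young mouse, against 4.12% of all tested genes, and 0 had every aged mouse above every young mouse, against 3.68%. It measured 47.2, 53.1, 53.1, 55.3 and 49.5 CPM in young mice 1 to 5 and 46.05, 43.5, 40.6, 45.8 and 43.7 CPM in aged mice 1 to 5. The lowest young value, 47.2 CPM, stood just above the highest aged value, 46.0 CPM, and the log2 fold change was -0.23 ± 0.08 SE (adjusted p = 0.105 by edgeR). Of 11 J-domain genes of the endoplasmic reticulum, grouped after their values were seen, 0 were called and all 11 had 95% intervals within 1.5-fold, with log2 fold changes from -0.23 to 0.17. Of 9 mitochondrial members, Hspa9, Hspd1 and Hspe1 included, 0 were called, with values from -0.19 to 0.30. Dnajc19, which assists protein import into mitochondria, had a log2 fold change of -0.19 (adjusted p = 0.434 by edgeR).

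Among the nuclear and ribosomal members, Dnajc9, a chaperone of newly made histones, measured 22.8, 33.95, 21.98, 31.8 and 26.2 CPM in young mice 1 to 5 and 20.7, 25.1, 21.6, 19.2 and 22.7 CPM in aged mice 1 to 5. Young mice 2 and 4 were highest and the groups overlap (log2 fold change -0.32 ± 0.13 SE, adjusted p = 0.144 by edgeR). Dnajc17, a nuclear member linked to splicing, measured 5.21, 3.88, 5.51, 3.99 and 3.51 CPM in young mice 1 to 5 and 4.61, 5.23, 5.85, 6.59 and 6.201 CPM in aged mice 1 to 5. Aged mice 3, 4 and 5 lay above every young mouse (log2 fold change 0.37 ± 0.16 SE, adjusted p = 0.164 by edgeR). Dnajc21, which acts in the maturation of ribosomes, had a log2 fold change of 0.30 (adjusted p = 0.2197 by edgeR). None of these 3 was called.

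Per kilobase of the gene length in the count table, which counts exon bases and not the span, the level of Hsp90ab1 was highest. It was at 119 CPM per kilobase in young and 147 in aged bone. Hspa8 followed at 71.1 and 67.8 CPM per kilobase, then Hspb6 at 42.4 and 72.0, Hspb7 at 28.4 and 61.5, Hspa9 at 27.6 and 30.8, Hspb8 at 19.5 and 36.3 and Hspd1 at 25.9 and 24.5. Hsp90aa1 was at 20.6 CPM per kilobase in young and 15.4 in aged bone, Hspa4 at 17.7 and 17.9 and Dnaja2 at 17.0 and 18.2. The order is by the mean over all 10 mice. Neighbours such as Hspa9 and Hspb8, at 29.2 and 27.9 CPM per kilobase over all mice, do not differ beyond their spread.

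The partners of these chaperones outside the name rule were taken from 6 lists of textbook genes, of which 58 were tested. Of the 58, 1 was called higher and 0 lower, where 3.68% and 3.61% of all tested genes were, and the median log2 fold change was -0.01. At an unadjusted p under 0.05, 9 were higher and 4 lower, against 13.3% and 12.4% of all tested genes. The called gene was Hsf4, a heat shock factor known from the lens. It was at 3.65 ± 1.18 CPM in young and 6.32 ± 1.13 CPM in aged bone (SD, n = 5 per group; log2 difference 0.79 ± 0.21 SE, adjusted p = 0.0360 by edgeR), and the groups overlap, since young mouse 5 at 5.49 CPM lay above aged mouse 4 at 5.41 CPM. Its call was lost with the muscle markers as a covariate (0.53, edgeR adjusted p = 0.120), with the immediate-early genes (0.54, 0.203), with scaling by total counts (0.61, 0.0882), and without any of young mice 1 to 4 or aged mice 3 and 5 (0.0548 to 0.100).

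Of 20 HSP90 co-chaperones 0 were called, with the smallest p for Stub1, a ubiquitin ligase of chaperone clients (0.29, edgeR adjusted p = 0.148), and Unc45a, a myosin chaperone (0.23, 0.164). Of 11 HSP70 exchange and BAG factors 0 were called, with Bag3, the partner of Hspb8, at a log2 difference of 0.54 (adjusted p = 0.104 by edgeR) and Bag2 at -0.37 (0.159). Of 14 genes of the TRiC chaperonin and prefoldin, which fold actin and tubulin, 0 were called, with Cct5 at -0.37 (edgeR adjusted p = 0.0639) and Pfdn5 at 0.34 (0.0755). The 8 organelle chaperones and mitochondrial proteases had 0 calls, with Lonp1 at 0.24 (edgeR adjusted p = 0.121) and Clpb at 0.24 (0.254), and of a list of 2 crystallins and their sperm-tail relative Odf1 only Cryab was tested.

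Signs of handling were read beside the stress genes. Of 16 immediate-early genes, which respond within minutes to injury, 2 were called higher, Egr3 and Ier2 (log2 fold changes of 0.62 and 0.62, edgeR adjusted p = 0.0183 and 0.0207). None of the 16 was called lower, and 3.68% and 3.61% of all tested genes were called higher and lower. At an unadjusted p under 0.05, 5 of the 16 were higher and 2 lower, against 13.3% and 12.4% of all tested genes. The log2 fold changes of the 16 ran from -0.82 to 0.62, with a median of 0.13. None was at 0 in every library, and their sum was 426 to 475 CPM in young and 435 to 507 CPM in aged mice. Cirbp, which cold induces, was at 31.3 ± 4.68 CPM in young and 53.7 ± 6.53 CPM in aged bone (SD, n = 5 per group; log2 difference 0.78, adjusted p = 0.00228 by edgeR), while Rbm3, its relative, differed by -0.02 (adjusted p = 0.933 by edgeR). With the mean level of the immediate-early genes as a covariate, 0 of the 70 chaperone genes were called higher and 0 lower. Of all tested genes 0.829% and 1.22% were called in that fit. The part of Cirbp, Rbm3 or handling in the chaperone levels was not tested.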

How the data were processed

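RNA of flushed femurs from 5 young and 5 aged mice was measured in 1 library per mouse. The authors deposited raw gene counts, obtained with Cutadapt (trimming), STAR (alignment to the mouse genome) and featureCounts. The labels name a human build while the gene identifiers are mouse. Of the 73 genes, all 73 had an entry in GENCODE vM21 (GRCm38) and 71 had the same start and end there. Strand setting and annotation release: not given in the sources used here. Ages were taken from the labels, all 10 columns were used, and the authors' own comparisons were not.

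Analysis was done with edgeR 4.0.16 in R 4.3.3 (minimum count 10, minimum total 15, TMM scaling, robust quasi-likelihood fit, Benjamini-Hochberg adjustment). Standard errors (SE) are the absolute log2 fold change over the square root of F. Mean marker levels are means of log2 CPM (prior count 2). Ratios were compared by two-sided exact permutation over libraries. Over the 22088 tested genes the median SE was 0.178 on the log2 scale. No pair of libraries of a group agreed within sampling noise. The steps were tested on simulated data. The share of large changes to be recovered, set before that test, was missed over all changed genes and was then asked only of those that passed the filter on low counts. Small changes can go uncalled with 5 mice per group. Alternatives were other scalings and filters, DESeq2 1.42.0, limma-voom (limma 3.58.1), muscle, marrow and immediate-early marker covariates, a replicate block, and each library left out. The muscle slope and the ratios with a muscle or marrow covariate were chosen after seeing the data. Tables and figures used Python 3.11.15, numpy 2.4.6, pandas 2.3.3, scipy 1.17.1 and matplotlib 3.10.9.

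The genes and lists were chosen with earlier results of these data known. Named are every called gene, those with the 10 smallest p in each direction, the 10 highest per kilobase, fixed textbook members, and up to 2 per other list. Genes outside this rule are marked. Protein sequences were not used here.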

Additional observations from a re-analysis of the deposited data

Results flagged for a closer look

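In 5 of 70 groups of 5 mice tested among the named genes and the HSP90 and HSP70 ratios, 1 mouse stood apart from the other 4 by more than the 0.71 share of the group's range that Dixon's critical value allows, and chance flags about 1 in 20 such groups. Hspa8 was lowest in young mouse 1, at 269 CPM. Dnajb1 was highest in aged mouse 2, at 28.6 CPM, and so was Dnajb13, at 19.2 CPM. Dnajc21 was highest in young mouse 3, at 33.03 CPM. Hsf1 was highest in young mouse 5, at 52.3 CPM.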

How the results depend on the processing

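Of 659 values of the 33 named members under the alternatives, 618 kept their direction and side of the threshold, 6 lost a call, 13 gained one and 22, none of them called, changed sign. The sign changed with total counts alone for Dnaja2 (-0.087), Hsf1 (-0.13), Hspa4 (-0.15), Hspa9 (-0.019) and Hsph1 (-0.041), a scaling that moved the median of all tested genes from 0.01 to -0.16. It changed with the muscle covariate for Dnaja2 (-0.11), Hsf1 (-0.028), Hspa1b (-0.097), Hspa4 (-0.042), Hspa9 (-0.17), Hspb1 (-0.0079), Hspb6 (-0.093) and Hsph1 (-0.070), with the immediate-early covariate for Hsf1 (-0.094) and Hsf2 (0.016), and with a single mouse left out for Dnaja2 (range -0.015 to 0.17), Hsf1 (-0.016 to 0.17), Hsf2 (-0.16 to 0.062) and Hspa4 (-0.038 to 0.055). The cause was not tested.

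The count of members called higher, 0 with all libraries, was 1 with RLE scaling, 1 without a filter, 2 with DESeq2 and 0 to 5 with single mice left out, and the count called lower, 1, was 0 with the muscle covariate, 0 with the immediate-early covariate and 0 to 1 with single mice left out. Calls over all tested genes moved too. The share called higher was 3.91% with RLE scaling, 2.33% without a filter and 6.10% with DESeq2. It was 1.34% to 3.82% with single mice left out, against 3.68% with all libraries. The share called lower was 3.11% with the muscle covariate and 1.22% with the immediate-early covariate. It was 1.73% to 3.71% with single mice left out, against 3.61% with all libraries. The counts of members at 1.5-fold or more were the same. The Hsp90aa1 to Hsp90ab1 difference ran from -0.82 to -0.60 and the inducible HSP70 ratio from 0.23 to 0.62 with single mice left out. The replicate numbers do not pair the mice, since same-numbered mice had correlations of -0.154 to 0.169. With the replicate number as a replicate block 3 members were higher (Hspa1l, Hspb7 and Hspb8) and 1 lower, all tested genes gave 957 higher and 675 lower calls against 812 and 798, the HSP90 difference stayed at -0.71 with an exact sign-flip p of 0.0625, the smallest 5 pairs allow, and the HSP70 ratio had an exact p of 0.188. Among the named members, Hspa1a, Hspa1b, Hspa1l, Hspb9 and Dnajb7 had at most 152 counts in any library.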
